A study of Caenorhabditis elegans with 2 samples.

Results

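The strongest ChIP-seq candidate regions of MBF-1 at autosomal gene starts were examined in Caenorhabditis elegans L2 larvae. In the list of 30000 regions that the authors made from both replicates together, 5427 regions lay off X and the mitochondrial genome with their summit within 500 bp of the start of a protein-coding gene. The 400 of these with the highest signal value were taken as members, and the remaining 5027 served as the comparison. Members were therefore chosen by pooled signal, which both replicates entered, and every signal value below is a description. A region in a candidate list, which holds background by design, was not read as bound.

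Whole larvae of strain OP427, of pooled sex and unknown age, were used in both biological replicates, which formed 1 group. The strain carries unc-119(ed3) III and the transgene wgIs427, from which MBF-1 is expressed with GFP-FLAG fused to its C-terminus. There was no other genotype, no other stage and no second factor, and the control alignment named by the submitters was not analysed here. Because whole animals were used, the cell types behind a region cannot be told apart, and neither can signal from tagged MBF-1 and signal that any such experiment gives at open gene starts. The replicate lists held 19135 and 23203 regions for replicates 1 and 2, and the list thresholded on rank consistency (IDR) held 132. The read depth is unknown here, so counting error of a single region cannot be given.

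MBF-1 belongs to the multiprotein bridging factor family, small conserved coactivators that in yeast and insects link DNA-bound activators to the general transcription machinery. Worm gene starts differ from those of many animals. Most worm mRNAs receive a spliced leader in place of their own 5′ end, so an annotated start often marks the trans-splice site, and transcription begins some way upstream of it. Many worm genes also lie in operons or share a promoter region with a divergently transcribed neighbour.

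The sequences at the summits are shown first because some short CG-containing words, among them CGCG and CGCAG, were more frequent in the members than in the remaining regions. Each is the reference sequence of ce11 (WBcel235) from 40 bp before to 40 bp after the summit, on the strand of the gene with the nearest start, and none overlaps an annotated exon. Capitals mark CGCG, CGCAG (or its complement CTGCG) and GAGAGA (or its complement TCTCTC) on either strand. The 12 highest members on chromosomes II to V whose window is free of exons are all shown, rpl-3 and cox-5A in the second set, and the other sequences were picked because they hold a word. Of the 12, 5 hold none of the words in this window, namely rpl-3, Y17G9B.5, rpl-15, tasp-1 and cox-5A.
cdc-48.1, chrII:10563539-10563619, minus strand: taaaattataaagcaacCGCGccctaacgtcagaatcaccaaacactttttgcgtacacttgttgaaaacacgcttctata
Y17G9B.5, chrIV:4750049-4750129, plus strand: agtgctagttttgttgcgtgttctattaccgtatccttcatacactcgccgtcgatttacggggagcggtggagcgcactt
tasp-1, chrIII:10759173-10759253, plus strand: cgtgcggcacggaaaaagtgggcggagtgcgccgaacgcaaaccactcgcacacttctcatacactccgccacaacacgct
rpl-35, chrIII:7854643-7854723, plus strand: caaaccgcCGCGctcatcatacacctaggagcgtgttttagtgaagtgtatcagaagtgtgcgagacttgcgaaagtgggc
Y22D7AL.10, chrIII:1619061-1619141, minus strand: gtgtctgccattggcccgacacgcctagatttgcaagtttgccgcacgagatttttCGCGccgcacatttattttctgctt
C47E8.4, chrV:14685710-14685790, minus strand: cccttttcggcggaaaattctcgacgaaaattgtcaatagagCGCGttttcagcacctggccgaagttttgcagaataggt
wip-1, chrIII:5018270-5018350, plus strand: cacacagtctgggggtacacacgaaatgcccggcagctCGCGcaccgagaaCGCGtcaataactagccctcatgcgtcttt
mig-5, chrII:8185130-8185210, minus strand: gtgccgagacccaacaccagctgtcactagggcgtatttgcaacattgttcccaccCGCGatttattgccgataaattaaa
eelo-2, chrIV:17249862-17249942, plus strand: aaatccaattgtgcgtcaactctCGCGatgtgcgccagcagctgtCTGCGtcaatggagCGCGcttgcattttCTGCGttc
tomm-20, chrV:12343685-12343765, minus strand: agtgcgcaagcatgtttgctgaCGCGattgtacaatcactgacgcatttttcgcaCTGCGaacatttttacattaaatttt
Y55F3AR.2, chrIV:1094324-1094404, plus strand: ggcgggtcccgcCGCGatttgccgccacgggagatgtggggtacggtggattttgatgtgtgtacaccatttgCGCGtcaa
C27F2.9, chrIII:4963072-4963152, minus strand: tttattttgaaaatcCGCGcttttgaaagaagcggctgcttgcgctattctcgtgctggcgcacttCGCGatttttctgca
vig-1, chrII:1320588-1320668, plus strand: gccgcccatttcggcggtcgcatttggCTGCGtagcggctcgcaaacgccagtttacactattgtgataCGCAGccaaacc
lin-9, chrIII:8904272-8904352, minus strand: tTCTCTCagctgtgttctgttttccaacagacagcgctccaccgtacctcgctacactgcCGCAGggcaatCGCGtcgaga
rpl-15, chrIV:654934-655014, minus strand: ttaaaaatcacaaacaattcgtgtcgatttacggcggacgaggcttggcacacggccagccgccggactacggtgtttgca

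Another pair is shown because the members share a longer word. The regions upstream of rpl-3, which encodes a protein of the large ribosomal subunit and whose region had the highest signal of all members, and of cox-5A, a subunit gene of cytochrome c oxidase, hold the same 21 bases in opposite orientation, marked in capitals.
rpl-3, chrIII:3867530-3867610, plus strand: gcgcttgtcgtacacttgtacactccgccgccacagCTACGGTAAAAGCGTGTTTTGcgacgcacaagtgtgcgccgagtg
cox-5A, chrIII:12905137-12905217, plus strand: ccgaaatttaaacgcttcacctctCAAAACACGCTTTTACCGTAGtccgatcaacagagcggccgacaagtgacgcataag

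The signal of the members ran from 34.5 to 197 with a median of 39.7, against 15.5 to 34.5 and a median of 20.3 in the remaining regions, all on the authors' scale. A few regions stood well above the others. At rpl-3 the pooled signal was 197, with 77.8 in replicate 1 and 122 in replicate 2. The region 151 bp upstream of Y17G9B.5, which lies 311 bp from the divergent ribosomal protein gene rpl-20, reached 166 in the pool, 82.6 in the replicate 1 list and 83.8 in the other. At cdc-48.1, the gene of a p97-type AAA ATPase that unfolds ubiquitinated proteins, the values were 166, 76.0 and 88.9. All 3 regions were high in both replicates. Next came rpl-15 with 153, 59.9 and 90.6, and rpl-35 with 134, 72.8 and 59.6, both of them genes of the large ribosomal subunit. The steps below were smaller. The region at tasp-1, a homologue of the protease taspase, had a pooled signal of 103, and that at cox-5A had 89.7.

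The other members among the 25 highest had pooled signals of 66.0 to 87.0. They lay at Y22D7AL.10, C47E8.4, rps-1 (small ribosomal subunit), wip-1 (a WASP-interacting protein of the actin system), mig-5 (a Dishevelled protein of Wnt signalling), eelo-2, vig-1, rpl-12 (large ribosomal subunit), tba-2 (α-tubulin), tomm-20 (mitochondrial protein import), lin-53 (a histone-binding chromatin protein), rps-20 (small ribosomal subunit), ddp-1, gmps-1 (GMP synthesis), Y55F3AR.2, eif-3.C (translation initiation), kin-14 and F55A11.1. In 24 of the 25 highest the summit lay upstream of the start, by 94 to 451 bp in 23 and by 11 bp at kin-14. The exception was rpl-12, where it lay 20 bp downstream. At the lower edge of the members the values were continuous. The last inside were C33A12.4, szy-4 and Y50C1A.2 at 34.51, 34.48 and 34.47, and the first outside were idh-1, rnh-1.0 and Y17G7B.17 at 34.47, 34.47 and 34.46.

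Both replicates listed most members. A replicate 1 region overlapped 372 of the 400 members (93.0%, exact 95% interval 90.0 to 95.3%), where 51.4% of all 5427 regions had one. A replicate 2 region overlapped 391 (97.8%, interval 95.8 to 99.0%), where 60.3% of all had one. Both replicates had a region at 363 members (90.8%, interval 87.5 to 93.4%), against 27.7% of all 5427 regions and 22.7% of the remaining ones, and none of the members lacked a region in both. The members were chosen on the pooled signal, so nothing is read from these shares about the replicates' agreement. Equally strong regions elsewhere gave similar shares, at 50 of 53 X regions at coding starts (94.3%) and 327 of 379 autosomal regions over 1000 bp from any gene start (86.3%), both at or above the lowest member's signal. The thresholded list overlapped 43 members (10.8%), where it overlapped 0.903% of all 5427 regions, and 42 of its 74 autosomal peaks had the same coordinates as a member.

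The replicate 1 signal had a median of 20.4 over the 372 members it listed, and the replicate 2 signal one of 21.4 over 391. The ratio of replicate 2 to replicate 1 had a median of 1.06 with quartiles of 0.790 and 1.44. Scale and depth are unknown for both lists, so such a ratio sets 2 listed values side by side and is not read as a difference in binding. Across the 363 members with both values, as a description over regions of the same 2 libraries, Spearman's rho was 0.01 and Pearson's r 0.57. Without the 5 highest members r was 0.22. In bands of 100 members by pooled signal, rho was 0.13 in the highest band (98 regions with both) and -0.69, -0.55 and -0.55 in the next 3. The pooled signal ran with the sum of the replicate signals (rho = 0.84), and the members and bands were chosen by it. Such a choice can lower rho, but its part in these values was not tested. In the remaining regions with both values rho was 0.099 (n = 1142). Nothing is therefore read from these values about how alike the replicates ordered the regions. Sets chosen in 1 replicate, described further on, gave a rho of 0.38.

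**Figure D1:**
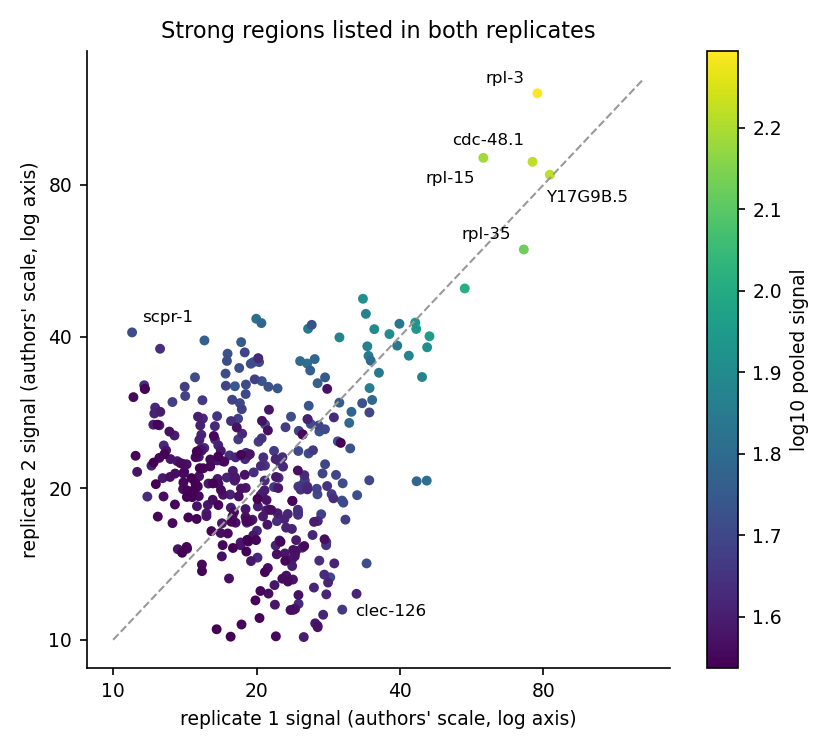
Signal of replicate 1 (x axis) and replicate 2 (y axis), both on the authors' scale and on log axes, for the 363 strong regions listed in both replicates, with colour for the log10 pooled signal and a dashed line at equal values. The 5 highest regions lie at the upper right, with replicate 2 values of 59.6 to 122. The choice of members on pooled signal can shape the cloud below them.

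The replicate ratio was extreme at a few members. At scpr-1 the signal was 11.0 in replicate 1 and 40.8 in replicate 2, a ratio of 3.72. At ceh-38, a homeobox gene, it was 12.5 and 37.8 (3.02), and at R166.2 it was 11.6 and 32.0 (2.76). The pooled signal of these 3 was 43.2 to 51.6. The opposite order was found at clec-126, a C-type lectin gene, with 30.3 and 11.5 (0.379). It was also found at pfd-5, a prefoldin subunit gene, with 32.4 and 12.3 (0.380), and at F54B3.1 with 26.9 and 10.6 (0.394). A further 9 members had a region in replicate 1 only and 28 in replicate 2 only.

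The summits of the members lay closer together between replicates than those of the remaining regions. The median distance between the replicate summits was 53 bp (interval 46 to 60 bp, n = 363) against 134 bp (interval 126 to 148 bp, n = 1142), and 48.8% against 23.2% of pairs were within 50 bp. The strong X regions, at 46 bp (n = 50), and the strong distal regions, at 59 bp (n = 327), resembled the members in this. All these strong groups were chosen by pooled signal, which both replicates entered. Nothing is therefore read from the distances about the replicates' agreement.

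Selection in 1 replicate and reading in the other avoids the shared pooled value. Of the 400 autosomal coding-start regions highest in replicate 1, 251 (62.8%, interval 57.8 to 67.5%) overlapped a replicate 2 region, against 39.1% of the remaining 3020. Of the 400 highest in replicate 2, 242 (60.5%, interval 55.5 to 65.3%) overlapped a replicate 1 region, against 29.9% of the remaining 3944. Within these sets rho between the replicates was 0.38 in each direction (n = 251 and 242). Of the 400 highest of replicate 1, 89 overlapped 1 of the 400 highest of replicate 2 (22.3%, interval 18.3 to 26.6%), against 162 of the remaining 3020 (5.36%, interval 4.59 to 6.23%). Of the members themselves, 192 overlapped the former set and 226 the latter.

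Members sat upstream of the annotated start. The median summit position was 152 bp upstream (interval 134 to 180 bp), while that of the remaining regions was 64 bp upstream (interval 53 to 75 bp), and the rule fixed only the distance of at most 500 bp. The summit was upstream in 299 members (74.8%, interval 70.2 to 78.9%) and in 57.4% of the remaining regions (interval 56.0 to 58.8%). Members with a summit 100 to 350 bp upstream made up 46.3%, against 31.2%. Summits over 200 bp inside the gene made up 14% of members and 24.5% of the remaining regions. Accordingly, 271 member summits (67.8%) lay outside coding genes, against 48.08%, while 7.25% lay in a coding exon, against 16.8%, and 14.5% in an intron, against 24.5%. The shares in a 5′ UTR were close, at 6% and 5.21%. The strong X regions had a similar position, with 38 of 53 (71.7%) upstream and a median of 163 bp upstream.

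**Figure D2:**
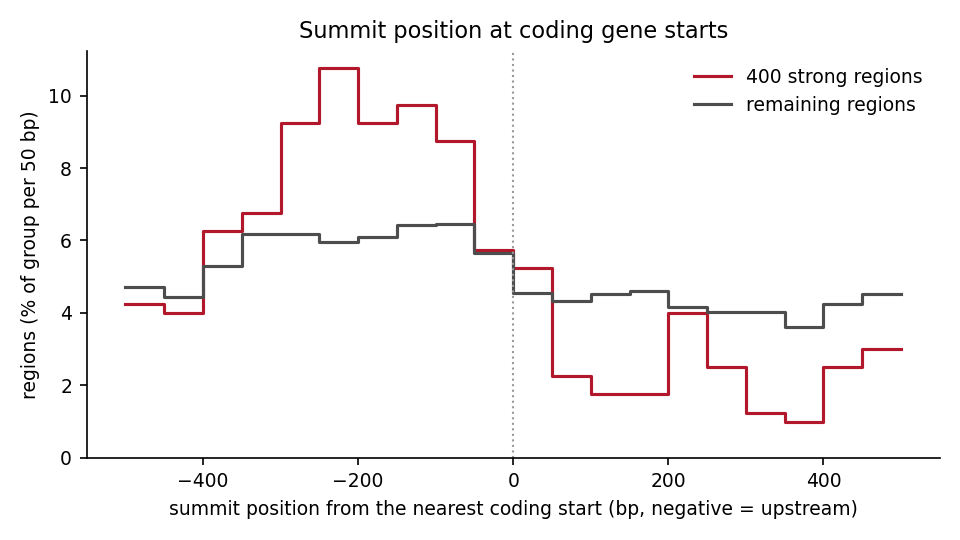
Share of regions (y axis, % of each group per 50 bp) by summit position from the nearest coding start (x axis, bp, negative is upstream in the direction of transcription), for the 400 strong regions in red and the 5027 remaining regions in grey. The strong regions peak at 10.8% between 250 and 200 bp upstream, where the remaining regions have 5.97%, and fall below them from 50 bp downstream.

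Shared promoter regions were frequent. More than 1 coding start lay within 500 bp of the summit in 79 members (19.75%, interval 15.96 to 23.99%), against 8.04% of the remaining regions (interval 7.30 to 8.82%) and 3 of 53 strong X regions. In 76 of the 79 the set of starts held a divergent pair. Examples among the highest members are rps-1 with ifet-1 (491 bp away), mig-5 with cct-1, a subunit gene of the cytosolic chaperonin (273 bp), and lin-53 with nra-2 (258 bp). At such a region the gene that belongs to the signal cannot be told apart, so all coding genes within 500 bp were counted below. A coding neighbour on the same strand within 500 bp of either end of the gene, as in operons or tightly packed genes, was found for 190 members (47.5%, interval 42.5 to 52.5%) and for 37.8% of the remaining regions. The difference lay after the gene end (30.3% against 20.7%) more than before its start (27.3% against 23.9%).

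Base composition at the summit was raised a little, and CG dinucleotides more. Within 100 bp of the summit the median G+C was 33.8% in members (interval 32.8 to 34.8%) and 31.8% in the remaining regions (interval 31.3 to 31.8%). The observed number of CG dinucleotides over that expected from the C and G content had a median of 1.31 in members (interval 1.24 to 1.38) and 1.01 in the remaining regions (interval 0.993 to 1.03). The strong X and distal regions were at 0.947 (interval 0.810 to 1.20) and 0.970 (interval 0.914 to 1.03). The median ratio was thus higher at strong autosomal coding starts than in either of the other strong groups, of which that on X held 53 regions. The intervals cover counting error over regions of the same 2 libraries, and the difference was not tested.

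Words were read on both strands within 100 bp of the summit, and of the 12 searched CGCG differed most in share. Of the searched words, those described at length were chosen after their shares had been seen. CGCG was present at 160 members (40%, interval 35.2 to 44.99%), at 15.97% of the remaining regions (interval 14.97 to 17.02%) and at 17.7% of all 5427. Strong distal regions had it at 15.6% (59 of 379, interval 12.1 to 19.6%), and strong X regions at 28.3% (15 of 53, interval 16.8 to 42.3%), so that the interval of the members overlapped the latter only. A further CGCG or a CGCAG beside the first, overlapping copies included, was found in 98 members (24.5%, interval 20.4 to 29.0%), such as wip-1, eelo-2, Y55F3AR.2 and C27F2.9 in the sequences shown, and in 6.17% of the remaining regions (interval 5.52 to 6.87%). Among regions with CGCG these were 61.3% of 160 members and 38.6% of 803 remaining regions. The word GCGC, searched after the share of CGCG was seen, was in 43.8% of members and 17.8% of the remaining regions, and it overlaps CGCG wherever the 2 run together. The other palindromes of G and C behaved otherwise, with CCGG in 14.8% against 18.0% and GGCC in 18.8% against 14.1%.

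The share with CGCG followed the rank and the position. It was 56%, 38%, 37% and 29% in successive bands of 100 members, 20.5% in the next 400 regions and 15% in those ranked 1601 to 5427. Upstream members had it at 46.5% (139 of 299) and members at or downstream of the start at 20.8% (21 of 101), while upstream remaining regions had it at 18.6%. In every band of G+C from 25% upwards the members had more than the remaining regions, for example 54.9% against 23.4% between 35 and 40% G+C, but below 25% none of 23 members had it. Weighted to the G+C of the members, the remaining regions had 19.5%. Chosen by replicate 1 alone the 400 highest regions had CGCG at 27.5%, and chosen by replicate 2 alone at 38.5%.

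**Figure D3:**
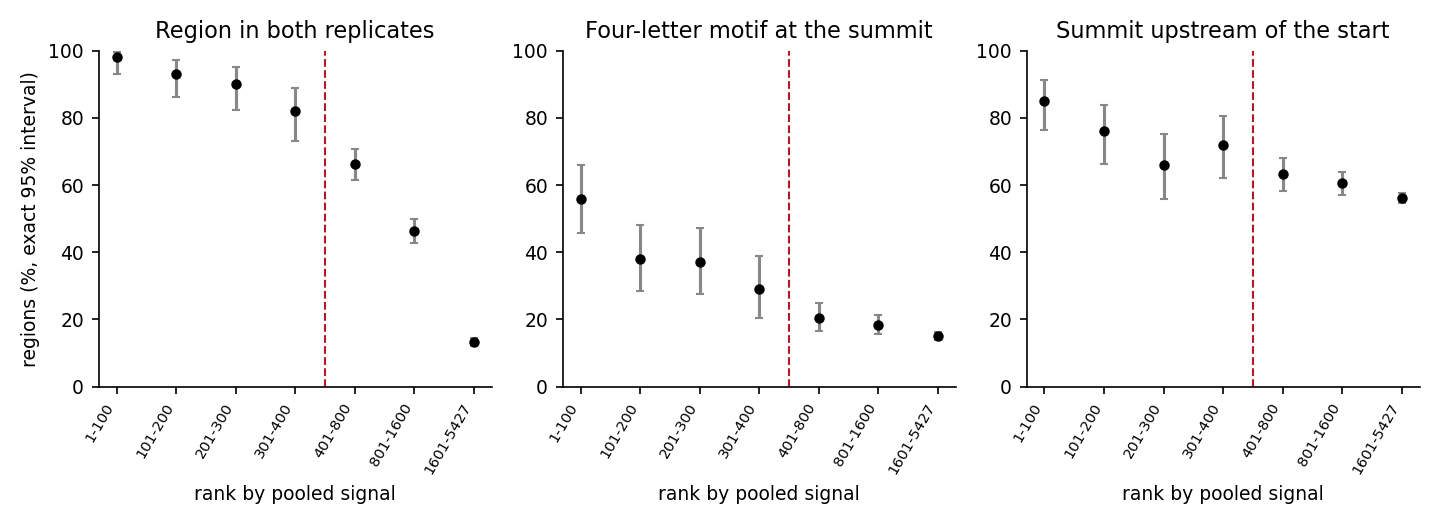
Share of regions (y axis, %, bars are exact 95% intervals) by rank in pooled signal (x axis) that had a region in both replicates (left), the word CGCG within 100 bp of the summit (middle) and the summit upstream of the start (right). Members lie left of the dashed line. The share with the word falls from 56% to 15%, and the share in both replicates from 98% to 13.2%.

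The word was concentrated at the summit. In windows of 25 bp it was found at 11.3% of members just after the summit and at 8.25% just before it, and at 3% between 125 and 150 bp after it. The remaining regions stood at 2.43%, 2.45% and 2.27% in these windows. CGCAG, a word that holds a single CG, was in 90 members (22.5%, interval 18.5 to 26.9%) and 11.3% of the remaining regions. The longer CTGCGTC, which contains it on the other strand, was in 4.75% of members (interval 2.88 to 7.32%), 2.23% of the remaining regions and 4.49% of strong distal regions. Among regions with CGCAG it was about as frequent in members (19 of 90, 21.1%) as in the remaining regions (112 of 566, 19.8%). At least 1 of CGCG and CGCAG was in 205 members (51.3%) and 24.1% of the remaining regions. The GA repeat GAGAGA was in 68 members (17%, interval 13.4 to 21.0%) against 10.7%, but also in 12 of 53 strong X regions (22.6%). This difference depended on the rule, since it was 15% (interval 11.6 to 18.9%) against 13.05% with summits within 200 bp, 12.5% (interval 10.3 to 14.99%) against 10.98% with 800 members and 14.25% (interval 10.97 to 18.1%) against 10.99% chosen by replicate 1 alone. In these 3 the intervals held the share of the remaining regions. The share with GGGCGG, the GC box, was 7% against 3.54%.

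**Figure D4:**
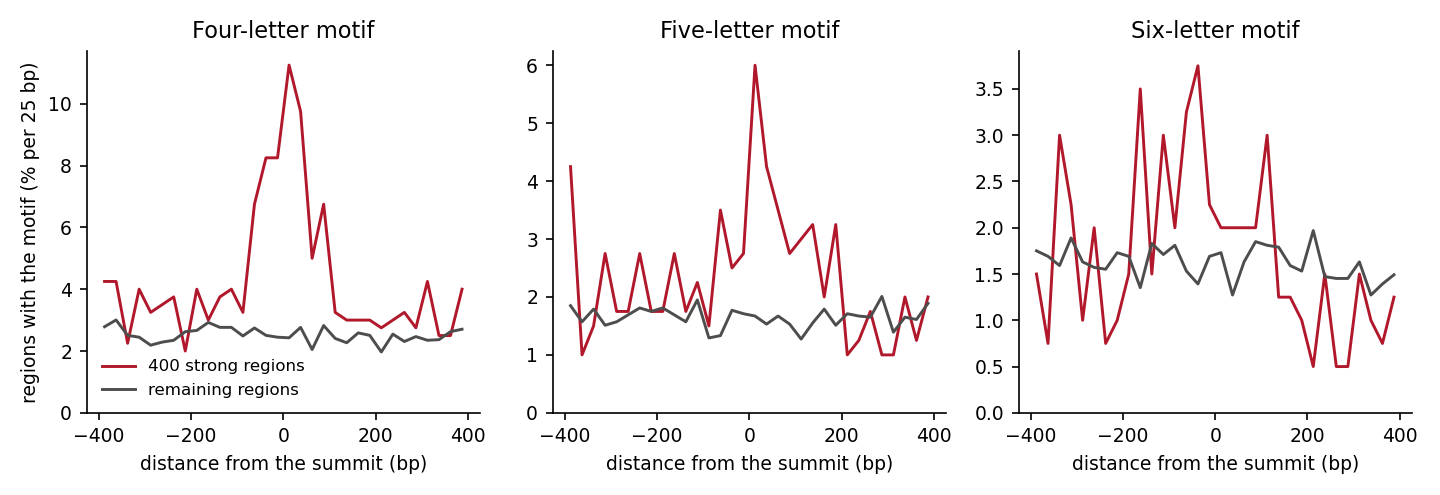
Share of regions with a word in each 25 bp window (y axis, %) by distance from the summit (x axis, bp), for CGCG (left), CGCAG (middle) and GAGAGA (right), with the 400 strong regions in red and the remaining 5027 in grey. CGCG rises to 11.3% and CGCAG to 6% just after the summit in the strong regions, while the grey lines stay flat.

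Most other words had shares close to the remaining regions. The T run TTTTTTT was in 45.3% of members against 44.8%, TATAAA, the core of the TATA box, in 30% against 29.2%, and the E box CACGTG in 2.50% against 2.77%. TGANTCA, which includes the sites of the bZIP factors AP-1 and GCN4, the latter an activator that works with yeast MBF1, was in 6.50% against 5.89%. TTGCATC, part of the element bound by C/EBP and ATF factors, was in 2.00% against 2.05%, and TTTCAG, as at splice acceptors, in 34.8% against 38.1%. The GATA word TGATAA was less frequent in members, at 17.5% (interval 13.9 to 21.6%) against 22.2%. A word in the sequence is a description and not a binding site, and G+C was matched only in the values given above.

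Words longer than any motif searched were also shared between members, an analysis chosen after the sequences were seen. Within 100 bp of the summit 144 of the 400 members shared at least 1 word of 16 bases, on either strand, with another member, against 71 to 102 in each of the next 6 sets of 400 regions by rank. For words of 20 bases the counts were 19 members and 2 to 7 regions. Beside rpl-3 and cox-5A, words of 20 bases joined tba-2, wwp-1, icd-2 and pfd-1, and polh-1 with rpl-39 and with rps-20. The other pairs were Y38C1AA.12 and F10E9.5, mdt-22 and tbc-20, npp-8 and sqv-6, sac-2 and lias-1, and rbc-2 and chk-1. The median copy number in the genome of the 16-base words of a region was above 1 in 38 members (9.50%) and in 63 of the next 400 regions (15.8%). This median does not register a single repeated stretch of 20 bases, so the part of repeats in the shared words was not tested.

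The genes at the members were counted over 27 lists defined by gene symbol. In all, 477 autosomal coding genes had their start within 500 bp of a member summit, which is 2.77% of 17242. Genes of the cytosolic ribosome had the highest share under this rule. Of 80 ribosomal protein genes, 22 were at a member (27.5%, interval 18.1 to 38.6%), in 21 of them with the summit upstream, and at 11 the region held CGCG. In the candidate list as a whole, 66.3% of them had a region at the start, against 31.2% of all coding genes, and of those with a region 41.5% were at a member, against 8.88%. These genes thus had a region more often, and a strong one more often among those with a region. Besides those described above, rps-19, rps-28, rpl-31, rpl-24.2, rpl-36, rps-14, rps-21, rps-22, rps-3, rpl-39, rps-30, rpl-25.2, rpl-6, ubl-1 and rps-11 were at members with pooled signals of 34.7 to 53.3, and rpl-24.2 and ubl-1 had no region in replicate 1. That ribosomal protein genes lie at the highest peaks was known when the list was chosen, so the count is not independent evidence. With a window of 200 bp in place of 500 bp the ratio of the list's share to that of all coding genes fell from 9.94 to 3.01 (interval 1.13 to 6.27), below the 5.43 of translation factors. Chosen by replicate 2 alone it was 7.10, again below the 7.67 of translation factors, so the order of these lists was not stable. By nearest start only, 16 of the 22 ribosomal protein genes remained and the ratio was 8.71 (interval 5.18 to 13.3).

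Other genes of protein synthesis and folding followed. Of 37 translation initiation and elongation factor genes, 8 were at a member (21.6%, interval 9.83 to 38.2%). At eif-3.C the pooled signal was 68.6, with 39.5 in replicate 1 and 38.4 in replicate 2. At iff-2, the gene of eIF5A, it was 52.4, with 18.4 and 34.7. At eef-2, the gene of the elongation factor that moves the ribosome along, it was 51.5, with 14.9 and 33.2. Chosen by replicate 1 alone the list's ratio to all coding genes was 3.02 in place of 7.82, with an interval of 0.635 to 8.16 that includes 1. Of 46 genes of heat shock proteins and their DnaJ partners, 8 were at a member (17.4%, interval 7.82 to 31.4%), all with the summit upstream. The highest were dnj-13 at 53.3, hsp-110 at 51.2 and hsp-1, a constitutive HSP70 gene, at 49.7, the last with 34.5 in replicate 1 and 28.3 in replicate 2. The ratio of this list to all coding genes was 6.29, and it was 3.86 chosen by replicate 2 alone. By nearest start only, 5 of the 8 genes remained and the ratio was 4.73 (interval 1.58 to 10.3). Within 200 bp it was 1.75, with an interval of 0.213 to 5.96 that includes 1. Of 8 chaperonin subunit genes, cct-1 and cct-8 were at members, but the nearest starts there were those of mig-5 and Y55F3AR.2. The region of hsp-110 likewise lay nearer to the start of the proteasome gene rpn-3, at 200 bp against 244 bp. The region of dnj-19 lay nearer to the start of nhr-47, at 6 bp against 402 bp. That of dnj-29 lay nearer to the start of ndua-2, at 227 bp against 301 bp. No gene of the 32 aminoacyl-tRNA synthetases was at a member, and the interval of 0 to 10.9% includes the share of all coding genes.

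Genes of the nucleus and of mitochondria were also present. Of 60 chromatin regulator genes, 7 were at a member (11.7%, interval 4.82 to 22.6%). The highest were at lin-54, which shares the region of rpl-12 with a pooled signal of 75.4, at lin-53 with 73.1, and at jmjd-1.2, a histone demethylase gene, with 56.0. The region held CGCG at 6 of the 7, where 40% of all members held it. It was also held at 6 of 8 translation factor genes, 5 of 6 splicing genes and 3 of 6 respiratory chain genes. Cell cycle genes had it at 2 of 4, mitochondrial ribosomal protein genes at 1 of 5 and proteasome genes at 0 of 2. Of 54 splicing and snRNP genes, 6 were at a member (11.1%), led by hrpf-2 at 57.0, snr-4 at 53.3 and sftb-1 at 49.0. Of 46 respiratory chain and ATP synthase genes, 6 were at a member (13.04%), with nduf-11 at 43.4 and atp-2 at 41.8 next after cox-5A. Of 70 mitochondrial ribosomal protein genes, 5 were at a member (7.14%, interval 2.36 to 15.9%), in 4 regions. The highest were mrpl-28 at 48.7, mrps-25 at 36.0 and mrpl-1 at 35.1. Of 50 cell cycle and replication genes, 4 were at a member (8%, interval 2.22 to 19.2%). After cdc-48.1 came pcn-1, the replication clamp, at 60.9 and mcm-10 at 41.3. The intervals of the mitochondrial ribosomal list and of the cell cycle list included the 2.77% of all coding genes. At jmjd-1.2, sftb-1, atp-2, mrps-25 and mrpl-1 another coding start lay nearer to the summit.

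A further group of lists also had intervals that included the 2.77% of all coding genes. Of 246 nuclear hormone receptor genes, 6 were at a member (2.44%), the highest being nhr-195 at 52.8, nhr-21 at 45.9 and nhr-189 at 38.4. The summit was upstream in 2 of the 6, and 1 region held CGCG. Of 145 collagen genes, 5 were at a member (3.45%). The region of bli-6 at 57.0 was also that of hrpf-2, col-85 had 50.7, and col-63 had 41.8 with a region in replicate 1 only. Neuropeptides (2 of 106, nlp-33 and nlp-4), homeobox and bHLH factors (2 of 76, ceh-38 and ceh-23), intestine (1 of 42, asp-2), germ granules and germline (1 of 32, pgl-2) and histones (1 of 68, his-37) had 1.47% to 3.13%. None of 28 muscle contraction genes (interval 0 to 12.3%) and none of 30 Argonaute and small RNA pathway genes (interval 0 to 11.6%) was at a member. Lists of this size could miss a share well above that of all genes.

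The remaining lists had 1 or 2 genes each, with intervals that all included the 2.77% of all coding genes. They were the proteasome (2 of 33, rpn-3 and pas-4), ubiquitin and its conjugation (2 of 24, uba-1 and ubl-5), RNA polymerase subunits (2 of 22, rpb-11 and rpb-3), glycolysis (2 of 16, ldh-1 and ipgm-1), small GTPases (2 of 35, rheb-1 and arf-6), the nucleolus (1 of 18, pro-1), the vacuolar proton pump (1 of 17, vha-9) and the nuclear pore (1 of 26, npp-8). Of the 477 genes, 99 were in a list (20.8%), against 8.39% of all autosomal coding genes, and since the lists were chosen with earlier results of these data known, nothing is read from that difference. Of the 477, 339 (71.1%, interval 66.8 to 75.1%) carried a gene-class name rather than only a sequence name, against 58.3% of genes at remaining regions only and 55.4% of all autosomal coding genes.

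**Figure D5:**
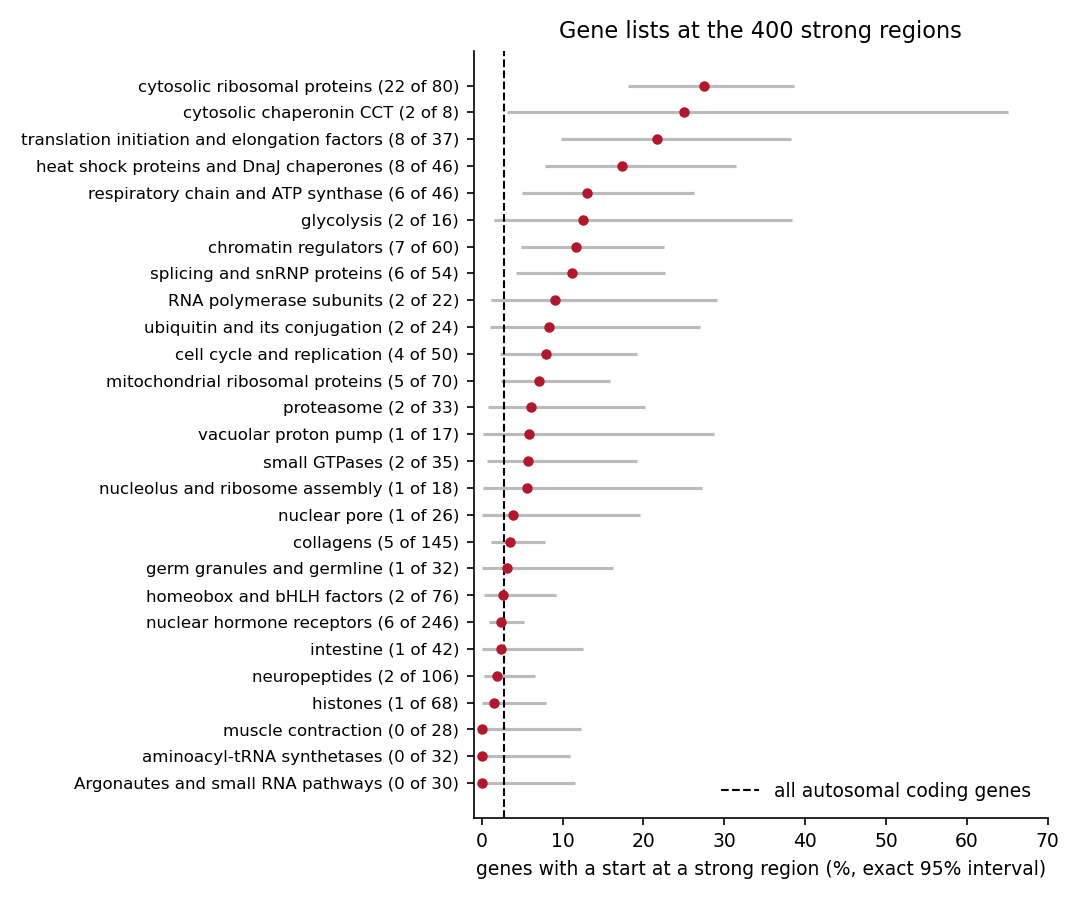
Share of the genes of each list with a start within 500 bp of a strong region (x axis, %, bars are exact 95% intervals), with the number of genes beside the list name (y axis) and a dashed line at 2.77%, the share of all autosomal coding genes. Cytosolic ribosomal proteins lie at 27.5% and nuclear hormone receptors at 2.44%.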

How the data were processed

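ChIP-seq of tagged MBF-1 in whole L2 larvae had 2 biological replicates, per the labels, with no pairing and no comparison group. The authors' deposited candidate lists are in narrowPeak format and give each region a signal value on a scale that no source used here states. The aligner, the caller and the IDR threshold were likewise not given in the sources used here. Values were used to rank and describe regions within a list, and values of 2 lists are set side by side as a description only. Regions of the pooled list are 380 bp wide for all members. Coordinates are ce11, counted from 1, and gene starts, exons and sequence are from WBcel235 (Ensembl release 115).

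Regions overlapped at 1 bp or more, and the strongest overlapping replicate region gave the replicate signal. Same-strand neighbours lay within 500 bp, and distal regions over 1000 bp from any gene start. Shares carry exact 95% Clopper-Pearson intervals, those of medians come from binomial order statistics, and both cover counting error only. Neighbouring regions and genes that share a start are not independent. No hypothesis test was run, because the design has 1 group and the members were chosen on the readout. Selection, overlap, position and word search were checked on simulated data. Python 3.11.15, pandas 2.3.3 and SciPy 1.17.1 were used.

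The members, the gene lists and the words were chosen with earlier results of these data known. Genes were named by rule, as the 25 highest members by nearest start, the 3 highest genes of each list, 3 on either side of the lowest member and the 3 most extreme replicate ratios in each direction. Sequences came from up to 12 of the 25 highest members and up to 4 for each enriched word. The remaining ribosomal protein genes, neighbours at a shared start and the genes joined by long words were named after their values were seen.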

Additional observations from a re-analysis of the deposited data

How the results depend on the processing

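Of 101 alternatives, 67 gave a value inside the 95% interval of the value reported. Those that counted overlapping members once dropped only 5 members and could hardly move a value, and the intervals of the list ratios are wide. The tally is therefore not a measure of robustness. With 200 members the shares were 95.5% in both replicates, 21.5% in the thresholded list, 80.5% upstream and 47% with CGCG, at 35.8% G+C. With 800 they were 78.5%, 5.38%, 69.0% and 30.3%, with 18.1% for CGCAG, 12.5% for GAGAGA and a median position of -129.5 bp. Within 200 bp of a start they were 74.5%, 4.25%, 69.0% and 33.8%, with a position of -63 bp, 7% at more than 1 start, and ratios of 3.01 for ribosomal proteins and 1.75 for chaperones. Ranked by 1 replicate in place of the pooled list, the ranges were 60.5 to 62.8% with a region in the other replicate, a rho of 0.382 to 0.386 (strongest overlapping region in each list), -144 to -129 bp, 66.8 to 75% upstream, 27.5 to 38.5% with CGCG and a ratio of 3.02 to 7.67 for translation factors. An overlap of at least 50% of the region gave 86.3% in both replicates. Within 50 bp of the summit CGCG was at 28.3%, CGCAG at 13.8% and GAGAGA at 8%. Of the alternatives added after seeing the data, upstream members had CGCG at 46.5% and the 100 highest a rho of 0.135. The cause was not tested. In each of these the members had more CGCG than the remaining regions. No paired analysis was possible because the replicates form 1 group. Depth is unknown here, so a region missing from a replicate list is not shown to lack signal there.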

Other observations

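Short RNA genes, a class outside the rule, were also found at the members. A start of a tRNA, snRNA or snoRNA gene lay within 500 bp of 12 member summits (3%, exact 95% interval 1.56 to 5.18%), at 6, 2 and 4 members, against 1.21% of the remaining regions (interval 0.929 to 1.56%). Among strong X regions at coding starts it was 4 of 53, all of them tRNA genes. At such a region the coding gene and the short RNA gene cannot be told apart as the source.

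By chromosome, III held 89 members (22.3%, interval 18.3 to 26.6%), against 17.1% of the remaining regions and 15.3% of autosomal coding genes, while V held 96 (24.0%, interval 19.9 to 28.5%), against 28.3% and 29.0%. Within the chromosomes, 61.3% of members and 58.7% of the remaining regions lay in the central part, which spans 50% of the length. The members were mostly scattered, with a median of 53021 bp to the nearest other member and 78 members within 10 kb of another.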
